A study of Homo sapiens with 72 samples.

Results

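The genes described here are YAP1, WWTR1, TEAD1, CCN1, CCN2, ANKRD1, AMOTL2, AJUBA, LATS2 and AXL. They encode the coactivators YAP and TAZ, the DNA-binding factor TEAD1 and common targets of their complex. These 10 genes were taken by name from the 60371 genes listed for every library, and all 10 passed the filter on low counts in every comparison below. They were measured by population RNA-seq, that is standard poly(A) RNA-seq of 1 well per library, in U2OS, a human osteosarcoma cell line.

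In total 72 wells were profiled after 12 h of exposure. DMSO, the solvent, was given to 18 wells. Of the treated wells, 3 were given to each of 3 doses (100 nM, 1000 nM and 10000 nM) of 6 compounds. Triptolide blocks transcription and homoharringtonine blocks the elongation step of translation. Nilotinib inhibits the ABL tyrosine kinase, MK-2206 inhibits the kinase AKT, pyrazolanthrone inhibits JNK kinases and miglitol inhibits intestinal alpha-glucosidases. All wells held the same line in serum-containing medium, and no label tells separate cultures of a group apart from wells of 1 culture. The p-values below therefore measure the spread between wells, which may be technical.

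As background, the Hippo pathway is a kinase cascade in which MST kinases activate LATS kinases, and LATS kinases phosphorylate YAP and TAZ and so keep them out of the nucleus. When the cascade is low, as on stiff substrates or in spread cells with a strong actin cytoskeleton, YAP and TAZ enter the nucleus, bind TEAD factors and switch on genes such as CCN1, CCN2 and ANKRD1. Several targets, among them LATS2 and AMOTL2, act back on the pathway as inhibitors. In sarcoma lines YAP and TAZ are commonly expressed, and activity of the complex is usually read from its target mRNAs, since YAP itself is controlled mainly by its location and phosphorylation.

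Libraries held from 0.0708 to 68.3 mil expected counts with a median of 38.4 mil, and 3 of the 72 were under 10 mil. These 3 were triptolide at 100 nM replicate 2 (70767 counts), DMSO replicate 10 (460014 counts) and triptolide at 1000 nM replicate 1 (9.63 mil). In DMSO wells the mesenchymal markers SPARC and VIM averaged 2144 ± 479 and 1842 ± 132 TPM (SD, n = 18) and COL1A1 456 ± 80.4 TPM. The bone markers RUNX2 and ALPL were low, at 3.91 ± 0.684 and 4.08 ± 1.71 TPM, and COL1A2 was close to 0 at 0.0889 ± 0.0640 TPM. Keratins KRT8 and KRT18 were high at 259 ± 34.7 and 367 ± 43.8 TPM, whereas EPCAM and CDH1 averaged 2.35 ± 0.839 and 0.442 ± 0.272 TPM. The markers of blood, endothelium and liver that were examined all averaged under 0.2 TPM, with HBB at 0 in every DMSO well. Mitochondrially encoded mRNAs, 13 in number, took 0.138% to 0.367% of the counts in DMSO wells and 0.518% to 1.15% in triptolide wells.

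TEAD factors bind the sequence CATTCC, or GGAATG on the opposite strand. Promoter sequences from RefSeq (GRCh38.p14) were at hand for 8 of the 10 genes, with 12 promoters in all, and CCN1 and TEAD1 were not among them. The 250 bases before the start of transcription are shown for CCN2 and ANKRD1, the target genes whose mRNA changed in the most groups. They are printed from 5′ to 3′ on the strand of the gene, with the TEAD motif in capitals. The CCN2 window is chr6:131951373-131951622 on the minus strand and the ANKRD1 window is chr10:90921088-90921337 on the minus strand.
CCN2: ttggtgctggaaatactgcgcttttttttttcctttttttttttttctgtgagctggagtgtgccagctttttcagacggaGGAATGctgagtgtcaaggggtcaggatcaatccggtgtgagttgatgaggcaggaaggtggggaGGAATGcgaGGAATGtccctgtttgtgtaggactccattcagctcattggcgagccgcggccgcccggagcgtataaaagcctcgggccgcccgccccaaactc
ANKRD1: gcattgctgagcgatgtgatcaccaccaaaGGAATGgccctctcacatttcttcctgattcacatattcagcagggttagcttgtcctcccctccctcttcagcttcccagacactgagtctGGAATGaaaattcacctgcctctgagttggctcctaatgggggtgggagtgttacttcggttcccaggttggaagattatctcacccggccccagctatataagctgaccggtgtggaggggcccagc

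The CCN2 window held 3 TEAD motifs, which began 169, 104 and 95 bases before the start. The ANKRD1 window held 2, beginning 220 and 128 bases before the start, and 1 AP-1 motif (TGANTCA) that began at 195 bases. Of 35116 RefSeq promoters, 11.9% held at least 1 TEAD motif in the same window, 0.940% held at least 2 and 0.0826% (29 promoters) held at least 3. An AP-1 motif was found in 6.57% of them. Single TEAD motifs lay in the YAP1 promoter and in 1 of the 2 promoters each of AMOTL2, AJUBA and AXL. No TEAD motif was found in the windows of WWTR1 and LATS2, and the CArG box, the site of serum response factor, was found in none of the 12 windows and in 1.16% of all promoters. Both strands were searched for each motif, no 2 matches overlapped, and a match is a description of letters only.

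**Figure D1:**
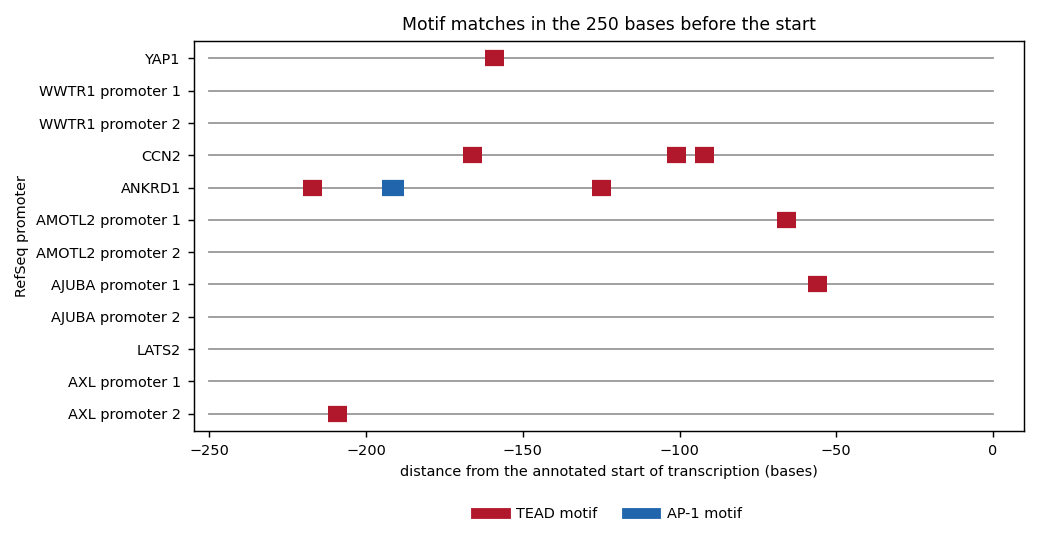
Positions of TEAD motifs (red) and AP-1 motifs (blue) in the 250 bases before the annotated start of transcription for 12 RefSeq promoters of 8 genes; the horizontal axis is the distance from the start in bases. CCN2 carries 3 TEAD motifs and ANKRD1 carries 2 TEAD motifs and 1 AP-1 motif.

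Under DMSO all 10 mRNAs were well detected. Levels of different genes are compared here in TPM, which corrects for gene length, as mean ± SD over 18 wells. AXL, a receptor tyrosine kinase, was highest at 356 ± 33.6 TPM. CCN1 followed at 200.3 ± 22 TPM and CCN2 at 131 ± 32.3 TPM; both encode secreted matricellular proteins. In all 18 wells AXL lay above CCN1 and CCN1 above CCN2.

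The scaffold AMOTL2 (91 ± 14 TPM), the LIM protein AJUBA (80.3 ± 7.81 TPM), the ankyrin repeat protein ANKRD1 (74.9 ± 14.5 TPM) and YAP1 (73.4 ± 9.85 TPM) came next. AJUBA was above ANKRD1 in 9 of 18 wells and ANKRD1 above YAP1 in 9 of 18, so these 3 did not differ beyond their spread. TEAD1 averaged 64.4 ± 9.66 TPM. LATS2 (25.7 ± 9.76 TPM) and WWTR1, the gene of TAZ (25.3 ± 8.6 TPM), were lowest, and LATS2 was above WWTR1 in 7 of 18 wells. The DMSO library of 460014 counts held part of this spread: without it the SD of WWTR1 was 2.55 TPM in place of 8.60 TPM.

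Across wells, each gene is followed in counts per mil (CPM) after TMM scaling, which sets most genes equal between libraries. A gene is said to have risen or fallen where edgeR's quasi-likelihood test gave a Benjamini-Hochberg adjusted p-value (padj) under 0.05 over all genes tested and the log2(Fold Change) against DMSO exceeded 1 in size. Errors of log2(Fold Change) are SE, with 3 treated and 18 DMSO wells. All 18 comparisons share the DMSO wells. Values are shares of the mRNA in a well, so fewer cells and less mRNA per cell cannot be told apart.

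Most falls were seen with triptolide. At 100 nM, 2 of the 10 genes fell and none rose; at 1000 nM and at 10000 nM, 5 fell and 1 rose. Of all genes tested, 20.9%, 30.4% and 30.2% fell at the 3 doses and 11.4%, 13.9% and 16.2% rose. The median log2(Fold Change) of the 10 genes was -0.51, -1.62 and -1.41, against medians of -0.16, -0.21 and -0.17 over all genes tested. Scaled to the mitochondrially encoded mRNAs in place of TMM, the median of all genes was -1.81, -2.68 and -2.92. The part of the higher mitochondrial share in these results was not tested.

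Homoharringtonine raised 2 of the 10 genes at each dose, not always the same ones, and lowered 1 at 10000 nM. Of all genes tested, 15.6%, 21.5% and 23.6% rose at the 3 doses and 19.3%, 20.9% and 23.4% fell. The counts of members are thus near these shares, and it is the identity and size of the changes that is described below. The median log2(Fold Change) of the 10 genes was 0.23, 0.55 and 0.36, and that of all genes was -0.03, -0.01 and -0.05.

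The 4 other compounds moved few genes. MK-2206 raised 1, 1 and 2 of the 10 genes at 100 nM, 1000 nM and 10000 nM, where 0.0054%, 0.286% and 0.711% of all genes rose or fell. Nilotinib raised 1, 1 and 2, against 1.48%, 1.13% and 3.12% of all genes. Pyrazolanthrone raised 0, 0 and 1, against 0.923%, 0% and 1.16%. With miglitol 0 of the 10 genes and 0% of all genes passed at each dose (0%, 0% and 0% of the genes tested). Here 2, 4 and 2 of the 10 genes had an unadjusted p under 0.05, against 5.10%, 8.46% and 22.7% of all genes, and DESeq2 called none of the 10 and 1, 9 and 1 of all genes. For pyrazolanthrone at 100 nM and 1000 nM 5 and 3 of the 10 had an unadjusted p under 0.05, against 22.9% and 5.59% of all genes, and DESeq2 called none of them. None of the 10 genes fell with these 4 compounds by edgeR under TMM scaling or by DESeq2. With mitochondrial scaling, AJUBA (-1.22, edgeR, padj = 0.00406) and LATS2 (-1.07, edgeR, padj = 0.0081) fell with nilotinib at 10000 nM. There 17.1% of all genes were lowered. In all, 30 of the 180 comparisons of a gene with DMSO passed by edgeR under TMM scaling.

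**Figure D2:**
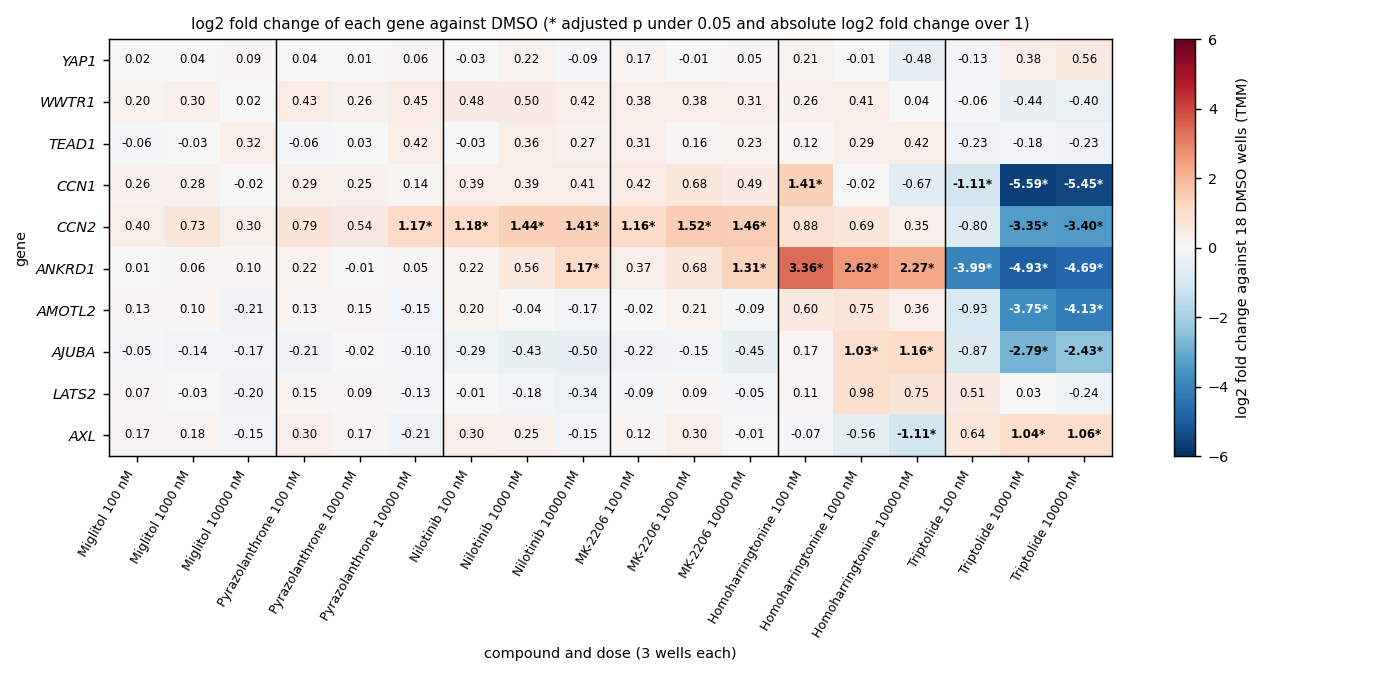
log2(Fold Change) against 18 DMSO wells (color and printed value, TMM scaling) of 10 genes (rows) in 18 groups of 3 wells (columns); an asterisk marks a gene that passed on padj (under 0.05) and on size (over 1). The strongest falls are those of CCN1, CCN2, ANKRD1, AMOTL2 and AJUBA with triptolide at 1000 nM and 10000 nM, CCN2 rises with nilotinib and MK-2206, and the AXL rise with triptolide turns to a fall under mitochondrial scaling.

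CCN1 (ENSG00000142871, chr1:85580761-85584589 on the plus strand, GRCh38) encodes CYR61, a secreted protein that binds integrins. Its DMSO wells ranged from 214 to 373 CPM (median 288). With triptolide the wells were at 140.3, 72.3 and 137 CPM at 100 nM, 7.72, 4.19 and 6.07 CPM at 1000 nM and 7.35, 5.99 and 6.93 CPM at 10000 nM. All 9 triptolide wells lay below the lowest DMSO well, and those of the higher doses were far below those at 100 nM. The log2(Fold Change) was -1.11 ± 0.14 (edgeR, padj = 2.21e-07) at 100 nM, -5.59 ± 0.18 (edgeR, padj = 6.30e-18) at 1000 nM and -5.45 ± 0.16 (edgeR, padj = 3.15e-19) at 10000 nM. CCN1 was thus 2.16-fold, 48.3-fold and 43.7-fold lower than in DMSO.

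With homoharringtonine CCN1 was above DMSO at the lowest dose and below it at the highest. The wells were at 752, 723 and 794 CPM at 100 nM, 296, 283 and 268 CPM at 1000 nM and 184, 193 and 176 CPM at 10000 nM. All 3 wells at 100 nM lay above the DMSO range, those at 1000 nM lay inside it and those at 10000 nM lay below it. CCN1 rose by 2.67-fold at 100 nM (log2(Fold Change) 1.41 ± 0.09, edgeR, padj = 8.21e-13). At 1000 nM the value was -0.02 ± 0.10 (padj = 0.86 by edgeR), and at 10000 nM it was -0.67 ± 0.11 (padj = 6.28e-06), past the limit on padj but not that on fold.

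With the other compounds CCN1 stayed within 1 on the log2 scale. MK-2206 gave the higher values, with 437, 519.6 and 408 CPM at 1000 nM (log2(Fold Change) 0.68 ± 0.10, edgeR, padj = 2.82e-04), and 8 of its 9 wells lay above the highest DMSO well. Of the nilotinib wells 5 of 9 did, and 1 of 9 each for miglitol and pyrazolanthrone.

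CCN2 (ENSG00000118523, chr6:131948176-131951372 on the minus strand, GRCh38) encodes connective tissue growth factor, which acts on matrix deposition and adhesion. Its DMSO wells spread over 129.8 to 269 CPM (median 196), the widest relative range of the common targets. With triptolide the wells were at 108, 84.3 and 117 CPM at 100 nM, 15.6, 20.7 and 20.5 CPM at 1000 nM and 23, 20.1 and 13.4 CPM at 10000 nM. All 9 lay below the DMSO range. CCN2 fell at 1000 nM (log2(Fold Change) -3.35 ± 0.25, edgeR, padj = 1.07e-11) and at 10000 nM (-3.40 ± 0.26, padj = 1.36e-11), that is 10.2-fold and 10.5-fold. At 100 nM the value was -0.80 ± 0.22 (edgeR, padj = 0.00342), inside the limit on fold.

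CCN2 was the gene of the 10 that the kinase inhibitors changed most often. Nilotinib wells were at 467, 397 and 452 CPM at 100 nM, 647, 470.4 and 461 CPM at 1000 nM and 558, 554 and 428 CPM at 10000 nM. MK-2206 wells were at 548, 369 and 387 CPM, 459, 758 and 446 CPM and 488, 627 and 487 CPM at the same doses. All 18 of these wells lay above the highest DMSO well. With nilotinib CCN2 rose 2.26-fold, 2.72-fold and 2.67-fold (log2(Fold Change) 1.18 ± 0.17, 1.44 ± 0.17 and 1.41 ± 0.17; edgeR, padj = 1.32e-04, 2.73e-05 and 2.06e-06). With MK-2206 it rose 2.23-fold, 2.87-fold and 2.75-fold (log2(Fold Change) 1.16 ± 0.17, 1.52 ± 0.17 and 1.46 ± 0.17; edgeR, padj = 0.00661, 1.64e-05 and 6.09e-06). At 100 nM of MK-2206 it was the 1 gene of 18530 tested that passed by edgeR, and by DESeq2 it was 1 of 12 that did. Mitochondrially encoded mRNAs took 0.350% to 0.387% of the counts in the nilotinib wells at 10000 nM, and 2 of the 3 lay above the DMSO range, and with mitochondrial scaling CCN2 was at 0.77 and ANKRD1 at 0.50 there, both inside the limit on fold. The MK-2206 call at 100 nM was lost without replicate 1, the highest of the 3 wells (log2(Fold Change) 0.97, padj = 0.441), and without replicate 2 (1.22, padj = 0.0648), by edgeR.

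Pyrazolanthrone wells were at 331, 364 and 283 CPM, 311, 260.3 and 263 CPM and 419, 527 and 393 CPM from the lowest to the highest dose, and 7 of 9 lay above the DMSO range. CCN2 rose at 10000 nM (2.25-fold, log2(Fold Change) 1.17 ± 0.18, edgeR, padj = 1.04e-04). The GC slope of a library, that is how its gene levels change with GC content, was -0.308 to -0.0942 in these 3 wells and -0.432 to 0.302 in DMSO wells. With that slope as a covariate the value was 0.99, just inside the limit on fold, and with mitochondrial scaling 0.84. Miglitol wells were at 188, 304 and 264 CPM, 312, 405 and 243 CPM and 245, 277 and 212 CPM, of which 4 of 9 lay above the DMSO range, with log2(Fold Change) of 0.40 ± 0.19, 0.73 ± 0.19 and 0.30 ± 0.19 (edgeR, padj = 0.748, 0.165 and 0.29). Under mitochondrial scaling CCN2 was past both limits with miglitol at 1000 nM (1.12, edgeR, padj = 0.0269) and with pyrazolanthrone at 100 nM (1.08, edgeR, padj = 0.0116).

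Miglitol wells of the same dose were then used as the reference, an alternative chosen after the values of CCN2 in miglitol wells were seen. At 10000 nM, CCN2 was higher with MK-2206 (1.18 ± 0.14, 95% interval 0.91 to 1.44, edgeR, padj = 0.00773) and with nilotinib (1.12 ± 0.12, 0.89 to 1.35, padj = 5.10e-04), and the value for pyrazolanthrone was 0.88 ± 0.12 (padj = 0.00278). At 100 nM and 1000 nM no gene of the 10 passed against miglitol by edgeR. Of all genes tested, 0 had padj under 0.05 at these doses with nilotinib, MK-2206 or pyrazolanthrone. An unadjusted p under 0.05 was found for 1 and 2 of the 10 genes with nilotinib, 2 and 3 with MK-2206 and 0 at both doses with pyrazolanthrone. The shares of all genes at that unadjusted limit are not given here. There the CCN2 values were 0.79 ± 0.20 and 0.70 ± 0.22 for nilotinib (edgeR, padj = 0.944 and 0.843) and 0.76 ± 0.22 and 0.79 ± 0.26 for MK-2206 (padj = 0.712 and 1), with 3 wells against 3.

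With homoharringtonine CCN2 wells were at 362, 341 and 348 CPM at 100 nM, 287, 326 and 322 CPM at 1000 nM and 253, 251 and 251 CPM at 10000 nM. The wells of the lower doses lay above the DMSO range and those of the highest dose inside it. The log2(Fold Change) was 0.88 ± 0.17, 0.69 ± 0.17 and 0.35 ± 0.18 (edgeR, padj = 7.57e-05, 0.00109 and 0.0881), so CCN2 did not pass the limit on fold at any dose.

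**Figure D3:**
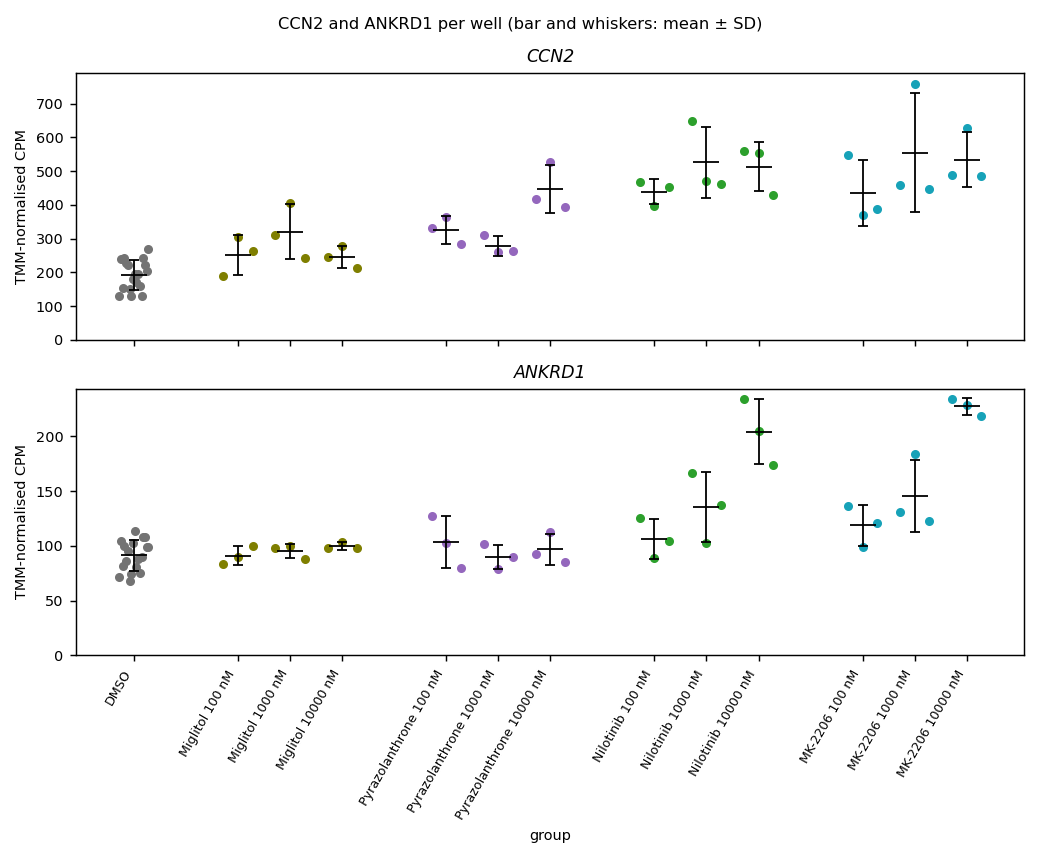
TMM-normalised CPM of CCN2 (upper panel) and ANKRD1 (lower panel) in each well (points) of DMSO, miglitol, pyrazolanthrone, nilotinib and MK-2206 groups, on axes from 0; horizontal bars and whiskers are mean ± SD. All nilotinib and MK-2206 wells of CCN2 lie above the highest DMSO well at 269 CPM, and ANKRD1 is highest at 10000 nM of these compounds.

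ANKRD1 (ENSG00000148677, chr10:90912096-90921087 on the minus strand, GRCh38) encodes a nuclear and sarcomeric ankyrin repeat protein and is among the most used readouts of YAP activity. Its DMSO wells ranged over 68 to 114 CPM (median 92.6). With triptolide the wells were at 5.75, 0 and 5.73 CPM at 100 nM, 1.67, 3.02 and 3.76 CPM at 1000 nM and 3.52, 3.56 and 3.8 CPM at 10000 nM. The 0 was in the library of 70767 counts, where a count of 0 allows up to 36.1 CPM and the other 9 genes had from 2 to 94 counts. All 9 wells lay below the DMSO range, and in contrast to CCN1 and CCN2 the wells at 100 nM were already near the level of the higher doses. The log2(Fold Change) was -3.99 ± 0.22, -4.93 ± 0.22 and -4.69 ± 0.18 (edgeR, padj = 4.94e-13, 1.26e-15 and 5.15e-17).

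Homoharringtonine raised ANKRD1 at every dose, with wells at 1025, 897 and 851 CPM at 100 nM, 535, 522 and 627 CPM at 1000 nM and 437, 422 and 489 CPM at 10000 nM. All 9 wells lay above the DMSO range, with the highest values at the lowest dose. The rise was 10.3-fold, 6.15-fold and 4.83-fold (log2(Fold Change) 3.36 ± 0.10, 2.62 ± 0.11 and 2.27 ± 0.12; edgeR, padj = 2.02e-18, 4.17e-16 and 1.09e-14).

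ANKRD1 also rose at 10000 nM of nilotinib, with wells at 234, 205 and 174 CPM (log2(Fold Change) 1.17 ± 0.13, edgeR, padj = 3.45e-07), and of MK-2206, with wells at 235, 229 and 219 CPM (1.31 ± 0.12, edgeR, padj = 1.79e-07). Both rises held against miglitol wells of that dose (1.08 ± 0.10 and 1.24 ± 0.09, edgeR, padj = 2.12e-04 and 0.00171). At 1000 nM the values were 0.56 ± 0.13 and 0.68 ± 0.13 (edgeR, padj = 0.0151 and 0.00496). The miglitol and pyrazolanthrone wells spanned 82.9 to 104 CPM and 79.0 to 127 CPM, and none of their values passed.

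AMOTL2 (ENSG00000114019, chr3:134355347-134375479 on the minus strand, GRCh38) encodes an angiomotin that can bind YAP and hold it in the cytoplasm. Its DMSO wells ranged over 198 to 304 CPM (median 246). Triptolide wells were at 131, 96.4 and 132 CPM at 100 nM, 14.2, 22.1 and 18.9 CPM at 1000 nM and 15.7, 14.7 and 13.1 CPM at 10000 nM, all below the DMSO range. AMOTL2 fell 13.4-fold at 1000 nM and 17.5-fold at 10000 nM (log2(Fold Change) -3.75 ± 0.16 and -4.13 ± 0.15; edgeR, padj = 5.34e-16 and 1.04e-17), and was at -0.93 ± 0.13 (padj = 1.75e-06) at 100 nM. Homoharringtonine wells, from 316 to 482 CPM, all lay above the DMSO range. Their log2(Fold Change) of 0.60 ± 0.11, 0.75 ± 0.11 and 0.36 ± 0.09 (edgeR, padj = 2.98e-05, 1.71e-06 and 0.00123) stayed under the limit on fold.

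AJUBA (ENSG00000129474, chr14:22971177-22982551 on the minus strand, GRCh38) encodes a LIM domain protein of cell junctions that can inhibit LATS kinases. Its DMSO wells ranged over 161 to 241 CPM (median 211). Triptolide wells were at 113, 96.4 and 115 CPM at 100 nM, 28.1, 23.5 and 38 CPM at 1000 nM and 40.6, 39.9 and 38.4 CPM at 10000 nM, all below that range. AJUBA fell at 1000 nM and 10000 nM (log2(Fold Change) -2.79 ± 0.15 and -2.43 ± 0.12; edgeR, padj = 2.36e-14 and 7.96e-15), with -0.87 ± 0.13 (padj = 2.91e-06) at 100 nM.

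Homoharringtonine raised AJUBA at the higher doses. Wells were at 204, 230.5 and 257 CPM at 100 nM, 454, 415 and 402 CPM at 1000 nM and 475, 458 and 477 CPM at 10000 nM. The groups at 100 nM and of DMSO overlapped, and the wells of the higher doses lay above all DMSO wells. AJUBA rose 2.05-fold at 1000 nM and 2.23-fold at 10000 nM (log2(Fold Change) 1.03 ± 0.09 and 1.16 ± 0.08; edgeR, padj = 4.47e-10 and 6.80e-12). Without replicate 1 the value at 1000 nM was 0.96 (edgeR, padj = 1.99e-08), inside the limit on fold. It was also inside that limit at 1000 nM with library sizes alone (0.89) and with mitochondrial scaling (0.97), and with the latter at 10000 nM (0.86, edgeR, padj = 0.00262). With nilotinib and MK-2206 at 10000 nM it was -0.50 ± 0.10 and -0.45 ± 0.10 (edgeR, padj = 0.00174 and 0.008). Under mitochondrial scaling the nilotinib value was -1.22 (edgeR, padj = 0.00406).

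LATS2 (ENSG00000150457, chr13:20973036-21061586 on the minus strand, GRCh38), the kinase that phosphorylates YAP and TAZ, passed in no comparison with DMSO by edgeR under TMM scaling with all wells and no covariate. Its DMSO wells ranged over 56.1 to 85.9 CPM (median 68.1). Homoharringtonine wells at 1000 nM were at 159, 123 and 122 CPM and at 10000 nM at 120.2, 113 and 118 CPM, all above the DMSO range. The log2(Fold Change) of 0.98 ± 0.11 and 0.75 ± 0.10 (edgeR, padj = 5.53e-08 and 4.88e-07) lay just inside the limit. The value at 1000 nM crossed it without replicate 2 (1.04) or replicate 3 (1.06) and by DESeq2 (1.0002). With the GC slope as a covariate the value was 1.19 at 1000 nM and 1.09 at 10000 nM (edgeR, padj = 5.93e-14 and 1.21e-10), and the GC slopes of the 3 wells at 10000 nM, -0.626 to -0.480, lay below those of all DMSO wells. Triptolide gave 0.51 ± 0.13, 0.03 ± 0.12 and -0.24 ± 0.11 (edgeR, padj = 0.00227, 0.826 and 0.0593), unlike the large falls of CCN1, CCN2, ANKRD1, AMOTL2 and AJUBA at the higher doses. Scaled to mitochondrial mRNAs, LATS2 was at -1.20 at 100 nM and -2.44 at 1000 nM. With nilotinib at 10000 nM the wells were at 52.6, 53.1 and 55.1 CPM, and the value was -0.34 ± 0.11 (edgeR, padj = 0.0452). Under mitochondrial scaling this nilotinib value was -1.07 (edgeR, padj = 0.0081).

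AXL (ENSG00000167601, chr19:41219223-41261766 on the plus strand, GRCh38) encodes the receptor of GAS6 and was the 1 of the 10 genes that rose with triptolide and fell with homoharringtonine. Its DMSO wells ranged over 783 to 1052 CPM (median 932). Triptolide wells were at 1457, 1132 and 1628 CPM at 100 nM, 1858, 1891 and 2026 CPM at 1000 nM and 1883, 1870.3 and 2241 CPM at 10000 nM, all 9 above the DMSO range. AXL rose at 1000 nM and 10000 nM under TMM scaling (log2(Fold Change) 1.04 ± 0.07 and 1.06 ± 0.07; edgeR, padj = 2.76e-12 and 2.92e-12), whereas under mitochondrial scaling it was lower than in DMSO (-1.42 and -1.73, padj = 5.62e-05 and 4.24e-06), and with library sizes alone it was at 0.59 and 0.52. Without replicate 3, the highest well, the value at 10000 nM was 0.97 (edgeR, padj = 1.03e-09).

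Homoharringtonine wells of AXL were at 796, 839.7 and 1007 CPM at 100 nM, 733, 536 and 629.5 CPM at 1000 nM and 419, 405 and 495 CPM at 10000 nM. The first group overlapped DMSO and the others lay below its range. AXL fell 2.16-fold at 10000 nM (log2(Fold Change) -1.11 ± 0.09, edgeR, padj = 2.74e-11), and the value with the GC slope as covariate was -0.99. At 1000 nM it was -0.56 ± 0.10 (edgeR, padj = 2.21e-05). With each of the other 4 compounds 4 or 5 of 9 wells lay above the DMSO range, and the log2(Fold Change) ran from -0.21 (pyrazolanthrone, 10000 nM) to 0.30 (nilotinib, 100 nM, edgeR, padj = 0.028).

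**Figure D4:**
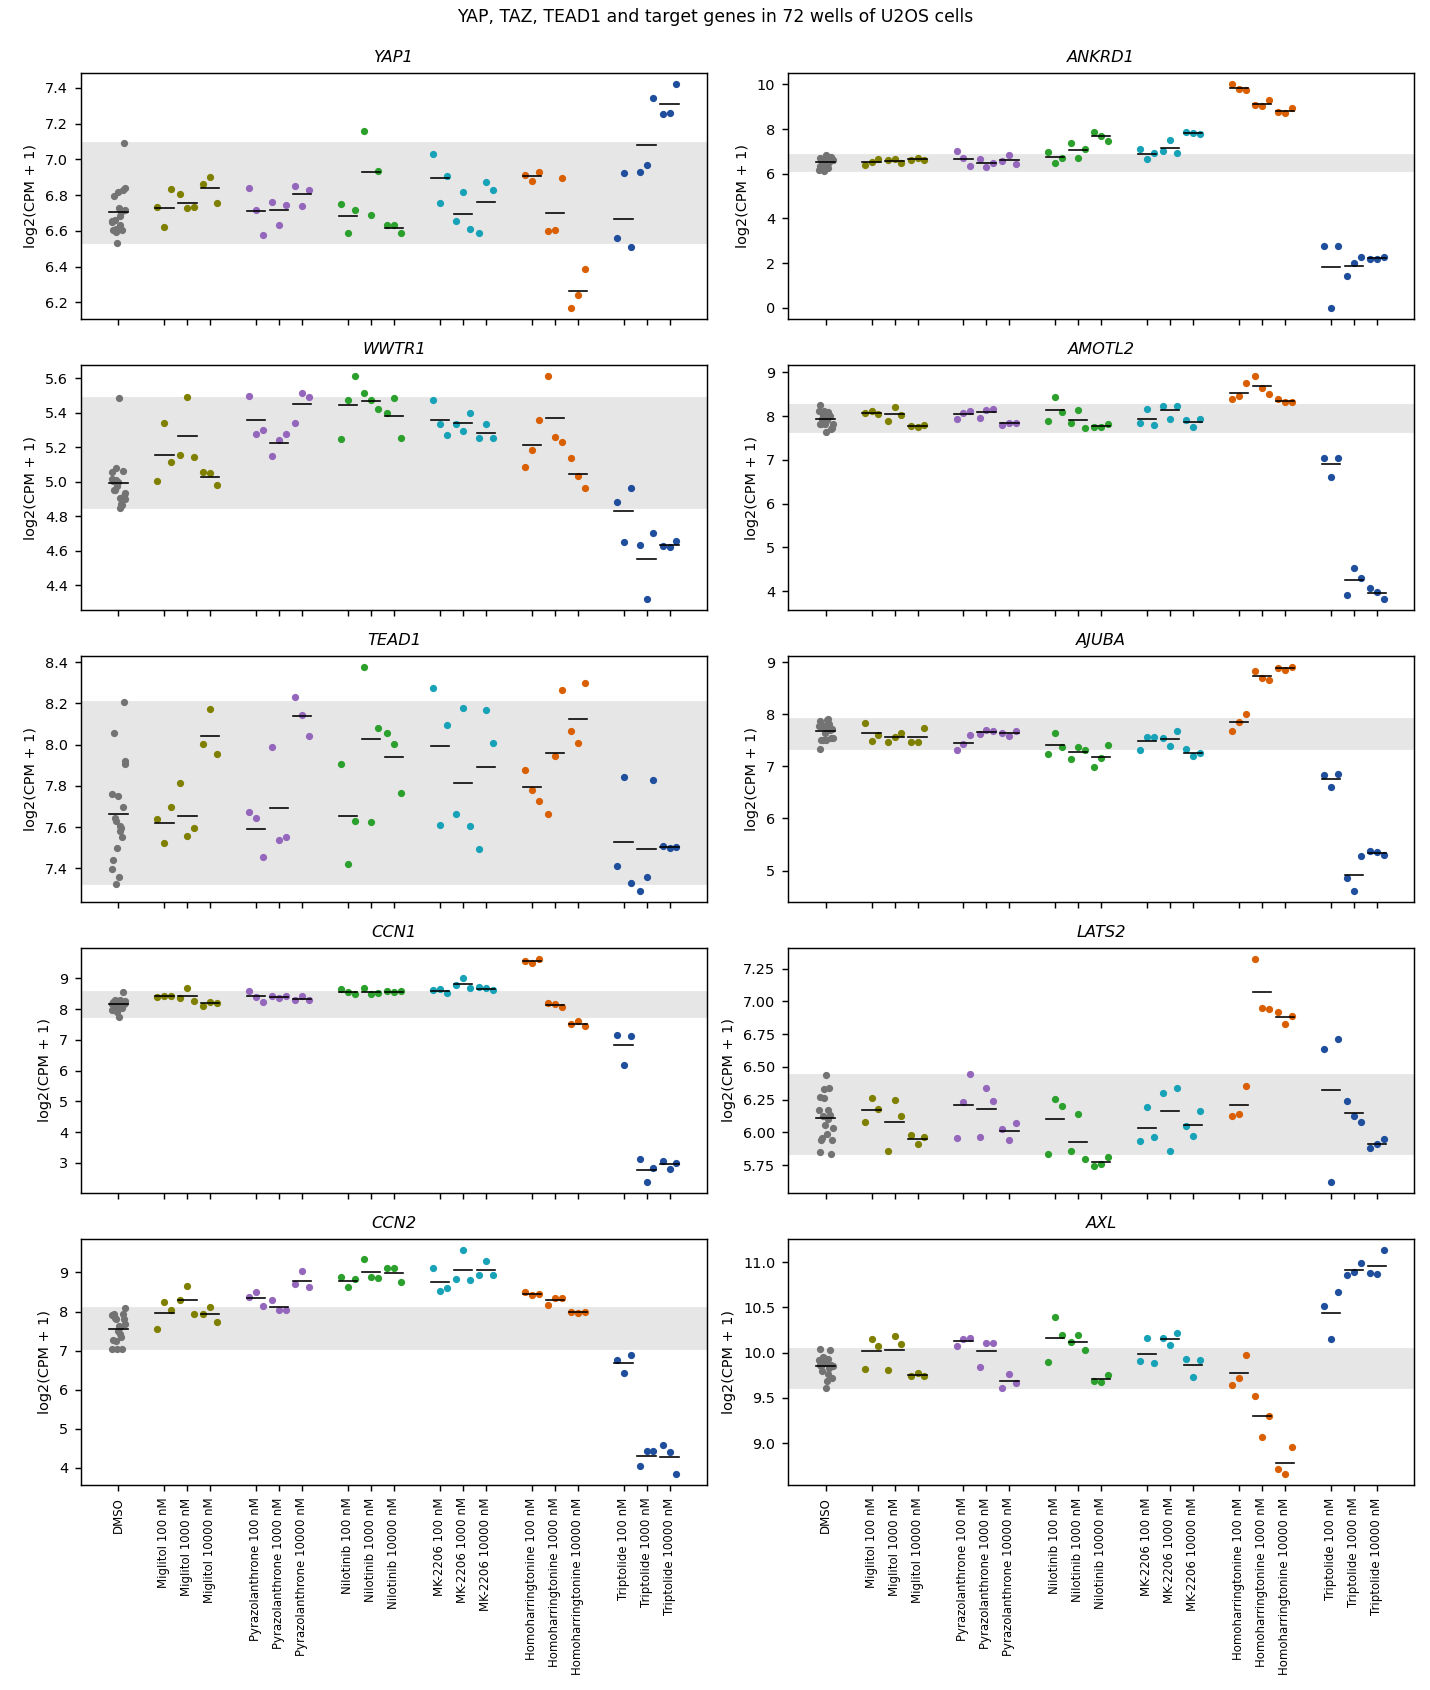
log2(CPM + 1) of each of the 10 genes in 72 wells (points), grouped by compound and dose, with a black bar at the group mean and a grey band over the range of the 18 DMSO wells; each panel has its own vertical scale. With triptolide the wells of CCN1, CCN2, ANKRD1, AMOTL2 and AJUBA lie below the DMSO band, and those of AXL above it under this TMM scaling, a direction that flips when scaled to mitochondrial mRNAs.

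The genes of YAP, TAZ and TEAD1 stayed within 1 of DMSO on the log2 scale in all 18 groups and passed in none of the comparisons under TMM scaling. YAP1 (ENSG00000137693, chr11:102110447-102233424 on the plus strand, GRCh38) ranged over 91.6 to 135 CPM (median 101) in DMSO wells. Triptolide wells were at 121, 124 and 162 CPM at 1000 nM and 152, 152 and 170.2 CPM at 10000 nM, and the wells of the highest dose lay above all DMSO wells. The log2(Fold Change) was 0.38 ± 0.09 and 0.56 ± 0.08 (edgeR, padj = 6.33e-04 and 8.80e-07) with TMM and -2.08 and -2.20 with mitochondrial scaling. With homoharringtonine the values were 0.21 ± 0.08, -0.01 ± 0.09 and -0.48 ± 0.09 (edgeR, padj = 0.0321, 0.914 and 4.46e-05), and the 3 wells at 10000 nM, 71, 74.5 and 82.6 CPM, lay below all DMSO wells. With the GC slope as a covariate the value at 10000 nM was -0.74.

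WWTR1 (ENSG00000018408, chr3:149517235-149736714 on the minus strand, GRCh38) ranged over 27.7 to 43.8 CPM (median 30.2) in DMSO wells, and its highest value came from the DMSO library of 460014 counts. The other 17 DMSO wells reached 32.8 CPM at most. Above that level lay all 9 wells each of nilotinib, pyrazolanthrone and MK-2206, 7 of 9 of homoharringtonine and 5 of 9 of miglitol. The log2(Fold Change) of WWTR1 was 0.48 ± 0.10, 0.50 ± 0.09 and 0.42 ± 0.09 with nilotinib (edgeR, padj = 0.00242, 0.00124 and 0.00158). Against miglitol wells at 10000 nM it was 0.41 ± 0.07 with nilotinib and 0.44 ± 0.07 with pyrazolanthrone (edgeR, padj = 0.00578 and 0.00542). These values passed the limit on padj but not that on fold. With triptolide it was -0.06 ± 0.11, -0.44 ± 0.10 and -0.40 ± 0.09 (edgeR, padj = 0.681, 6.48e-04 and 3.70e-04).

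TEAD1 (ENSG00000187079, chr11:12674421-12944737 on the plus strand, GRCh38) was the most variable of the 3 between DMSO wells, at 159 to 295 CPM (median 196). Across the 18 groups its log2(Fold Change) ran from -0.23 (triptolide, 100 nM, edgeR, padj = 0.223) to 0.42 (pyrazolanthrone, 10000 nM, padj = 0.049). With homoharringtonine at 10000 nM it was 0.42 ± 0.13 (edgeR, padj = 0.00704), and -0.10 (padj = 0.354) once the GC slope was a covariate. At 10000 nM of triptolide, where CCN1 was far below DMSO, TEAD1 was at -0.23 ± 0.13 (edgeR, padj = 0.126) under TMM scaling and at -2.96 under mitochondrial scaling.

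Triptolide and homoharringtonine were compared directly at each dose, 3 wells against 3 and without the DMSO wells. At 100 nM 4 of the 10 genes were lower with triptolide, at 1000 nM 5 were lower and 1 higher, and at 10000 nM 5 were lower and 2 higher. Of all genes tested, 47.9%, 58.6% and 68.1% differed in either direction, so the counts of members are near those shares. ANKRD1 differed most, with log2(Fold Change) of -7.27 ± 0.27, -7.57 ± 0.32 and -6.88 ± 0.10 (edgeR, padj = 4.06e-12, 1.48e-06 and 6.34e-12).

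CCN1 differed by -2.44 ± 0.20, -5.57 ± 0.26 and -4.70 ± 0.10 and CCN2 by -1.60 ± 0.18, -4.05 ± 0.20 and -3.67 ± 0.16, all with triptolide lower. AMOTL2 differed by -1.46 ± 0.18, -4.50 ± 0.24 and -4.40 ± 0.09. For AJUBA the difference was -0.96 ± 0.17 at 100 nM (edgeR, padj = 1.09e-04, inside the limit on fold, but -1.02, -1.01 and -1.15 without the wells of replicate 1, 2 or 3), -3.83 ± 0.22 at 1000 nM and -3.50 ± 0.07 at 10000 nM. Each of these 5 genes was thus lower with the inhibitor of transcription than with the inhibitor of translation.

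The 2 genes that went the other way were AXL and YAP1. AXL was higher with triptolide by 1.59 ± 0.15 at 1000 nM and 2.26 ± 0.09 at 10000 nM (edgeR, padj = 3.69e-05 and 1.90e-09), and YAP1 by 1.13 ± 0.08 at 10000 nM (edgeR, padj = 1.22e-07), under TMM scaling, whereas with mitochondrial scaling these differences were -0.82, -0.32 and -1.45. LATS2 was at 0.48 ± 0.18, -0.96 ± 0.18 and -0.91 ± 0.07 (edgeR, padj = 0.0283, 0.00139 and 1.90e-07), and at -1.03 at 1000 nM without the wells of replicate 2.

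**Figure D5:**
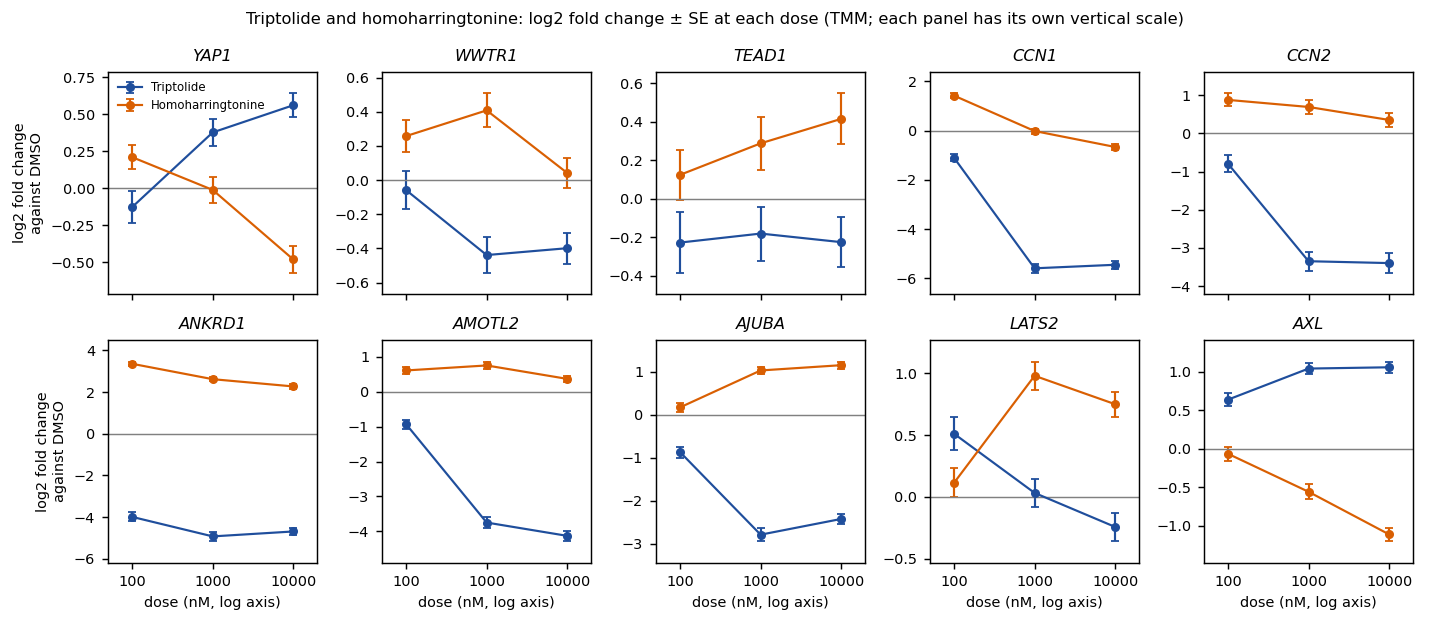
log2(Fold Change) against DMSO ± SE (vertical axes, TMM scaling, a separate scale in each panel) at 100 nM, 1000 nM and 10000 nM (horizontal log axis) of triptolide (blue) and homoharringtonine (orange) for 10 genes. CCN1 goes from above DMSO at 100 nM of homoharringtonine to below it at 10000 nM. The 2 compounds lie on opposite sides of 0 for ANKRD1, CCN2, AMOTL2 and AJUBA at all doses. With homoharringtonine, AJUBA at 100 nM and CCN2 at 10000 nM did not reach padj under 0.05. The positive YAP1, LATS2 and AXL values of triptolide turn negative under mitochondrial scaling.

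Dose trends were fitted over the 9 treated wells of each compound as the change of log2 level per log10 of dose, with no limit on size. With homoharringtonine 6 of the 10 genes had a trend, 1 upwards and 5 downwards, where 44% of all genes had one. CCN1 fell most steeply, at -1.05 ± 0.09 per log10 of dose (edgeR, padj = 1.34e-05). ANKRD1 (-0.55 ± 0.07), AXL (-0.53 ± 0.07), YAP1 (-0.36 ± 0.06) and CCN2 (-0.27 ± 0.05) also fell with dose, and AJUBA rose by 0.48 ± 0.08 (edgeR, padj = 0.00104). The trends of YAP1 and CCN2 were lost without replicate 2 (edgeR, padj = 0.0514 and 0.0603). That of AJUBA was lost under mitochondrial scaling (0.40, edgeR, padj = 0.107). Under TMM scaling ANKRD1 and CCN1 were thus highest at 100 nM of homoharringtonine and AJUBA at 10000 nM.

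With triptolide 6 of the 10 genes had a trend, against 24.7% of all genes. CCN1 (-2.18 ± 0.32), AMOTL2 (-1.61 ± 0.20), CCN2 (-1.31 ± 0.20), AJUBA (-0.79 ± 0.18) and LATS2 (-0.41 ± 0.09) fell per log10 of dose, and YAP1 rose by 0.28 ± 0.09 (edgeR, padj = 0.0371) under TMM scaling, with -0.24 (padj = 0.103) under mitochondrial scaling. The YAP1 trend was lost without any 1 of the replicates (edgeR, padj = 0.318, 0.0507 and 0.226 without replicates 1, 2 and 3). ANKRD1, already low at 100 nM, had no trend (-0.34 ± 0.19, edgeR, padj = 0.209). Without replicate 3 the trends of AJUBA (-0.73, padj = 0.0828) and LATS2 (-0.39, padj = 0.0755) were lost as well, leaving 3 genes, and LATS2 was also lost without replicate 1 (padj = 0.130, all by edgeR).

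With nilotinib 1 gene, ANKRD1, rose with dose (0.47 ± 0.09, edgeR, padj = 0.0285), where 3.09% of all genes had a trend. CCN2 did not (0.11 ± 0.08, edgeR, padj = 0.4), having lain above all DMSO wells at each dose. Under mitochondrial scaling the nilotinib value of ANKRD1 was -0.07 (edgeR, padj = 0.657), so its trend was lost. With MK-2206 none of the 10 had a trend by edgeR (1 at an unadjusted p under 0.05) and 0.028% of all genes did. By DESeq2 1 of the 10 had a trend, against 0.804% of all genes. The MK-2206 trend of ANKRD1 was 0.48 ± 0.08 (edgeR, padj = 0.122, unadjusted p = 1.40e-04).

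With pyrazolanthrone AXL fell (-0.27 ± 0.06) and TEAD1 rose (0.23 ± 0.07, edgeR, padj = 0.0222 and 0.0381), against 18.6% of all genes. With miglitol TEAD1 rose (0.20 ± 0.05, edgeR, padj = 0.0382), against 15.9%. Under mitochondrial scaling the miglitol value of TEAD1 was -0.23 (edgeR, padj = 0.0788), so this trend was lost. The GC slopes of miglitol wells were -0.0105 to 0.286 at 100 nM and -0.371 to -0.256 at 10000 nM, and their part in these trends was not tested. The trends of ANKRD1 with nilotinib and of AXL and TEAD1 with pyrazolanthrone were lost without replicate 2 (edgeR, padj = 0.209, 0.186 and 0.197) or replicate 3 (padj = 0.462, 0.150 and 0.176), and that of TEAD1 with miglitol without any 1 of the 3 (padj from 0.104 to 0.182).

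The rest of the pathway was described by 2 lists, 25 other Hippo pathway genes and 16 other YAP/TEAD target genes, of which IGFBP3 and NT5E were not tested because of low counts. With triptolide 1, 2 and 2 of the 25 Hippo genes rose and 7, 8 and 9 fell at 100 nM, 1000 nM and 10000 nM. Their median log2(Fold Change) was -0.54, -0.46 and -0.57. Of the 14 other targets tested, 3, 4 and 4 rose and 6, 4 and 4 fell, with medians of -0.73, 0.08 and -0.02. These shares can be read against the percentages of all genes given above for triptolide.

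Several Hippo genes fell at all 3 doses of triptolide. RASSF1, an activator of MST kinases, was at -1.40, -2.55 and -2.25. FRMD6, an upstream activator, was at -1.61, -1.88 and -1.85, and the kinase LATS1 at -1.55, -1.62 and -1.67. TEAD4, a paralog of TEAD1, was at -1.27, -1.34 and -1.28. LATS1 therefore fell at doses at which LATS2 did not pass.

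Of the other targets, the kinase NUAK2 fell most, to -6.11 ± 0.27 at 10000 nM (edgeR, padj = 5.54e-16), with -1.41 and -5.70 at the lower doses. FJX1, a secreted regulator of cadherin signalling, was at -1.89, -4.13 and -3.93 and the forkhead factor FOXF2 at -1.89, -1.31 and -1.74. In the opposite direction, under TMM scaling, were CRIM1 (1.26, 1.92 and 2.09), the membrane protein MYOF (1.01, 1.62 and 2.00) and the matrix protein CCDC80 (1.27, 1.73 and 2.00). WTIP, a relative of AJUBA, was at 1.03, 1.49 and 1.42. AXL was thus not alone among the targets in taking a larger share of the mRNA with triptolide. Under mitochondrial scaling CRIM1, MYOF, CCDC80 and WTIP were all below DMSO, at -0.69, -0.75, -0.78 and -1.40 with 10000 nM.

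With homoharringtonine 3, 3 and 4 of the 25 Hippo genes rose and 3, 5 and 6 fell from the lowest to the highest dose, with medians of -0.03, 0.13 and 0.07. Of the 14 other targets 3, 4 and 4 rose and 2, 4 and 5 fell, with medians of -0.17, -0.21 and -0.22. RASSF1, which fell with triptolide, rose at all 3 doses, from 3.18 at 100 nM to 2.48 at 10000 nM. TEAD2 (-1.68, -1.09 and -1.26) and VGLL4, which competes with YAP for TEAD (-1.26, -1.37 and -1.44), fell.

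Among the targets, GADD45A, a stress-induced growth arrest gene, rose 4.78, 4.10 and 3.53 on the log2 scale with homoharringtonine, and like ANKRD1 its value was highest at 100 nM. NUAK2 (1.08, 2.41 and 2.49) and ASAP1, a GTPase-activating protein (1.85, 1.60 and 1.03), also rose. CCDC80 (-3.44, -4.28 and -4.37) and the growth factor TGFB2 (-2.70, -2.55 and -2.47) fell. With the other 4 compounds 0 of the 25 Hippo genes passed at any dose by edgeR under TMM scaling or by DESeq2. By dose and compound 1 to 14 of them had an unadjusted p under 0.05, against 5.10% to 27.0% of all genes. Of the 14 targets GADD45A passed once, with nilotinib at 10000 nM (1.44 ± 0.17, edgeR, padj = 1.95e-06).

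The genes with the pattern most like that of a member were sought by Pearson correlation of group means of log2(CPM + 1) over the 19 groups, among 9392 protein-coding genes averaging at least 10 CPM. The groups share libraries of 1 experiment and the triptolide wells dominate the range, so the values are a description. For CCN1 the closest genes were ZNF263 (r = 0.992), DDX28 (0.992) and ZNFX1 (0.992), and AMOTL2 (0.963) and CCN2 (0.958) came 137th and 181st. For CCN2 they were KLF9 (0.974), SPRED2 (0.974) and MEF2D (0.965), with CCN1 10th. For YAP1 they were LDLRAD3 (0.928), CDK5RAP2 (0.907) and UBE2V1 (0.882), and for AXL MYH9 (0.986), EIF5A (0.984) and TLN1 (0.984). In the order for CCN1, AJUBA (r = 0.811) and ANKRD1 (r = 0.807) came 1379th and 1405th of the 9392 genes. LATS2 (4984th, r = 0.0404) and AXL (7570th, r = -0.633) lay far down.

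Over the 18 DMSO wells the 3 classic targets were compared with each other on the log2(CPM + 1) scale, with permutation p-values from 100000 resamples adjusted over the 3 pairs. CCN2 and ANKRD1 varied together (Pearson r = 0.736, adjusted p = 0.00186; Spearman rho = 0.676, adjusted p = 0.00765; permutation test). CCN1 and CCN2 did so less closely (r = 0.548, adjusted p = 0.0252; rho = 0.531, adjusted p = 0.0374; permutation test). For CCN1 and ANKRD1 r was 0.252 (adjusted p = 0.317) and rho 0.218 (adjusted p = 0.386, permutation test). Leaving out the 2 wells farthest from the median of the gene on the horizontal axis gave r = 0.771, 0.714 and 0.545 for these pairs. Leaving out the DMSO library of 460014 counts gave r = 0.774, 0.702 and 0.608, so that the low Pearson r of the last pair rested on that library. Its rho did not pass in either case, at 0.335 without the 2 wells (adjusted p = 0.206) and 0.446 without that library (adjusted p = 0.0751, permutation test). Levels of CCN2 and ANKRD1 in DMSO wells were lower where the GC slope was higher (r = -0.633 and -0.643, adjusted p = 0.00796 for both over the 3 genes; rho = -0.618 and -0.560, adjusted p = 0.0227 and 0.0254; permutation test), and for CCN1 r was -0.242 (adjusted p = 0.337) and rho -0.247 (adjusted p = 0.327, permutation test). Without the 2 wells farthest from the median GC slope r was -0.677, -0.601 and -0.286 for CCN2, ANKRD1 and CCN1. There rho was -0.644 for CCN2 (adjusted p = 0.0263) and -0.509 for ANKRD1 (adjusted p = 0.0703, permutation test). Correlations between these genes with the GC slope held constant were not computed.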

How the data were processed

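Population RNA-seq libraries (TruSeq Stranded mRNA, poly(A) selection) were made by the authors from 72 wells of U2OS cells, 12 h after compound addition. The authors deposited RSEM expected counts, TPM and FPKM per gene and well, on GRCh38 per the labels. Versions were not given in the sources used here. FPKM was not used. Of 60371 gene IDs, 56104 were matched to GENCODE v44.

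Expected counts were rounded to whole numbers. Genes were filtered with filterByExpr (minimum count 10), TMM normalised and tested with edgeR 4.0.16 (R 4.3.3) by the quasi-likelihood test, each group against the 18 DMSO wells, triptolide against homoharringtonine at each dose, and over log10 dose within a compound. P-values were adjusted by Benjamini-Hochberg over all genes tested. Correlations used scipy 1.17.1. The fits were tested on simulated data.

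Alternatives were DESeq2 1.42.0, other scalings (library sizes, RLE size factors, the 13 mitochondrial mRNAs), no filter, no libraries under 10 mil, leaving out each replicate, a replicate block, 1 fit over all wells and padj alone. A GC slope covariate and miglitol as reference were added after seeing the data. The 10 genes and both lists were chosen with earlier results of these data known. Of the lists, those genes are named that were called in 1 direction at all 3 doses of triptolide or homoharringtonine, up to 4 per list, compound and direction by size at 10000 nM, or called for any other compound. With 3 wells per group and median depth of 38.4 mil, precision is limited mainly by the wells. No 2 replicates agreed within sampling noise (chi-square per degree of freedom at least 1.36 over 207 pairs). Same-numbered wells did not deviate together (mean correlation -0.07 over 54 pairs, and 0.03 over 108 pairs of other numbers), so replicate numbers were not taken to pair wells.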

Additional observations from a re-analysis of the deposited data

Results flagged for a closer look

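A member was singled out where it lay above DMSO at 1 dose of a compound and below it at another, each with padj under 0.05, and the dose trend passed by edgeR's quasi-likelihood test. Both cases came from homoharringtonine. CCN1 changed by -1.05 ± 0.09 on the log2 scale per log10 of dose (edgeR, padj = 1.34e-05), from 1.41 ± 0.09 against DMSO at 100 nM to -0.67 ± 0.11 at 10000 nM. The 3 wells at 100 nM all lay above and the 3 wells at 10000 nM all below the DMSO wells.

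YAP1 changed by -0.36 ± 0.06 per log10 of dose (edgeR, padj = 0.0013), from 0.21 ± 0.08 at 100 nM to -0.48 ± 0.09 at 10000 nM. Neither end passed the limit on fold, and the YAP1 trend was lost without replicate 2 (padj = 0.0514). The GC slopes of the wells were -0.452 to 4.77e-04 at 100 nM and -0.626 to -0.480 at 10000 nM, and their part in both trends was not tested.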

How the results depend on the processing

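All 30 calls of a member against DMSO held with DESeq2, with RLE size factors, in 1 fit over all 72 wells and without the libraries under 10 mil. With library sizes alone 27 held, with the GC slope 27, with no filter 29 and without replicates 1, 2 and 3 28, 29 and 29. With mitochondrial scaling 23 held and 2 reversed. The cause of changes under other scalings was not tested.

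With padj alone as the call rule, which drops the limit on fold by construction, homoharringtonine moved 6, 7 and 8 members at 100, 1000 and 10000 nM, triptolide 7 at 100 nM, nilotinib 4, 5 and 6, MK-2206 4 at 1000 nM and 4 at 10000 nM, and pyrazolanthrone 3 at 100 nM and 3 at 10000 nM. Of all genes, padj alone was passed by 63.4%, 68.4% and 74.0% with homoharringtonine, 56.8%, 67.4% and 71.8% with triptolide, 9.08%, 3.95% and 14.4% with nilotinib, 1.52% and 3.15% with MK-2206 at 1000 and 10000 nM, and 4.77% and 7.65% with pyrazolanthrone at 100 and 10000 nM. Of the 25 Hippo genes, 17, 17 and 21 then passed with homoharringtonine and 19, 22 and 21 with triptolide, and of the 14 other targets 10 with homoharringtonine at 100 nM, shares to be read against those of all genes.

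With library sizes alone homoharringtonine moved 1 member at 1000 nM and triptolide 5 at 100 nM, against 42.8% and 35.8% of all genes. With mitochondrial scaling triptolide moved 9, 10 and 10 members, all lowered, and 23, 24 and 25 Hippo genes, and 9 members differed from homoharringtonine at 100 nM. Of all genes, 74.5%, 93.6% and 97.3% were then lowered by triptolide and 71.8% differed from homoharringtonine at 100 nM. Homoharringtonine then moved 1 member at 1000 nM, miglitol 1 at 1000 nM, and pyrazolanthrone 1 at 100 nM and 0 at 10000 nM, against 42.0%, 0.108%, 0.158% and 0.962% of all genes. The member moved by miglitol and by pyrazolanthrone was CCN2, which rose. With nilotinib at 10000 nM the values of CCN2 and ANKRD1 were then inside the limit on fold, and AJUBA (-1.22) and LATS2 (-1.07) fell past it. There 0.919% of all genes were raised and 17.1% lowered. A trend was then found in 8 members each with miglitol and nilotinib, and in 63.5% and 59.3% of all genes. With triptolide AXL reversed to -1.42 at 1000 nM and -1.73 at 10000 nM, YAP1 to -2.08 and -2.20 at these doses, and LATS2 to -1.20 at 100 nM and -2.44 at 1000 nM. Against homoharringtonine AXL reversed to -0.82 and -0.32 and YAP1 to -1.99 and -1.45 at 1000 and 10000 nM, and LATS2 to -1.17 at 100 nM.

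With the GC slope pyrazolanthrone moved 0 members at 10000 nM. By DESeq2, 1 member had a trend with MK-2206, 2 with miglitol and 2 with nilotinib, and with no filter 0 had one with miglitol. Leaving out 1 replicate gave 1 to 3 members with homoharringtonine at 1000 nM, 0 to 1 with MK-2206 at 100 nM, and trends in 0 with miglitol, 0 to 2 with nilotinib, 0 to 2 with pyrazolanthrone and 3 to 5 with triptolide. The shares of all genes in these smaller fits are not given here, so the ranges cannot be read as particular to the members. For CCN1 and ANKRD1 in DMSO wells r was 0.61 without the library under 10 mil and 0.55 without 2 wells, and rho was 0.446 and 0.335.

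The replicate block, with DMSO wells 1 to 3, moved 4 members with triptolide at 100 nM and 0 each with MK-2206 at 100 nM, nilotinib at 100 nM and nilotinib at 1000 nM. Of all genes, the block called 31.0% with triptolide at 100 nM and 0% in each of those other groups. With this block CCN2 was at 1.30 with MK-2206 at 100 nM (padj = 0.679), 1.37 with nilotinib at 100 nM (padj = 0.750) and 1.58 with nilotinib at 1000 nM (padj = 0.690, all by edgeR), with 3 DMSO wells in place of 18. AXL was at 0.96 with triptolide at 10000 nM.

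Libraries under 10 mil limit what can be said of the triptolide wells at 100 nM, and each group has 3 wells. Levels are shares of mRNA within a well, so that a fall of all mRNA is not seen. Strand-specific libraries were used, but the setting with which strands were counted was not given in the sources used here.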
